A study of Homo sapiens with 4 samples.

Results

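GATA1, GATA2, TAL1, LYL1, LMO2, KLF1, NFE2, ZFPM1 and HHEX are transcription factors and cofactors of blood stem cells and of the erythroid, megakaryocytic and mast cell lineages. They were taken by gene symbol, matched through the Ensembl identifiers of the count table, and are 9 of its 58037 genes. The study sequenced RNA of OCI-AML3, an established line of acute myeloid leukemia (AML) cells, to ask how gene expression differs once the mutant NPM1 (mtNPM1) of these cells is targeted by CRISPR-Cas9. The control group, sgNeg (called sgRNA Ctrl in the study's text), received a control guide, and the sgNPM1A group received a guide against mtNPM1. Both groups were harvested 3 days, or 72 hours, after transfection, and each has 2 libraries. The parental line carries a heterozygous NPM1 mutation, the target of sgNPM1A, and both groups share its heterozygous DNMT3A and homozygous NRAS mutations. They were edited as bulk cultures of a single line, in which fewer cells of a type and less RNA per cell cannot be told apart.

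GATA1 and GATA2 bind GATA words in DNA, and a shift in occupancy from GATA2 to GATA1 accompanies erythroid maturation. TAL1 and its close relative LYL1 are basic helix-loop-helix factors that pair with E proteins on E-boxes, and LMO2 with LDB1 joins these pairs to a GATA factor in 1 complex. KLF1 binds CACCC words in erythroid genes, NFE2 pairs with small MAF proteins in megakaryocytes and erythroid cells, ZFPM1 (FOG1) is a cofactor of GATA1, and HHEX is a homeobox factor of early blood and endothelial progenitors.

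Total counts lay between 25069484 and 28276391 per library, and levels are given as CPM, counts divided by the library total and brought to a common scale. A count of 3, taken here as the floor of detection, was worth from 0.108 to 0.118 CPM on that scale. Such a floor covers counting error only. Of all genes 15718 passed the filter on low counts and were tested. NPM1 itself had 33522 and 35881 counts in the sgNeg libraries and 33154 and 31428 in the sgNPM1A libraries, a log2 fold change of -0.22 (SE 0.07, edgeR adjusted p = 0.0360) smaller than the fold required of a call, and gene counts do not separate its alleles. GATA1 had too few counts for a test, and the other 8 members were tested. Each of these 8 passed the filter in all 4 libraries, so that none entered the test through 1 group alone.

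NFE2, GATA2, KLF1, LYL1 and HHEX were higher in sgNPM1A than in sgNeg, from 1.40-fold for HHEX to 2.91-fold for NFE2, while LMO2, TAL1 and ZFPM1 did not pass the test. A gene was called at an edgeR quasi-likelihood adjusted p under 0.05, with Benjamini-Hochberg adjustment over all tested genes, and a log2 fold change of at least 0.32 in either direction. By this rule 5 of the 8 tested members were called higher, against 10.5% of all tested genes. By edgeR 0 members were called lower, against 10.3% of all tested genes, 0 were lower at an unadjusted p under 0.05, and 0 were lower by DESeq2. In either direction 20.8% of all tested genes were called. In 6 of the 8 tested members both sgNPM1A libraries lay above both sgNeg libraries, against 31.4% of all tested genes, and in 0 they lay below, against 31.7%. The median log2 fold change of the tested members was 0.63, and that of all tested genes was 0.00. The members were chosen with earlier results of these data known, so these contrasts with all tested genes are a description. With 2 libraries per group an exact two-sided permutation test of a single gene cannot go below p = 0.333, so all tests rest on a spread shared between genes.

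**Figure D1:**
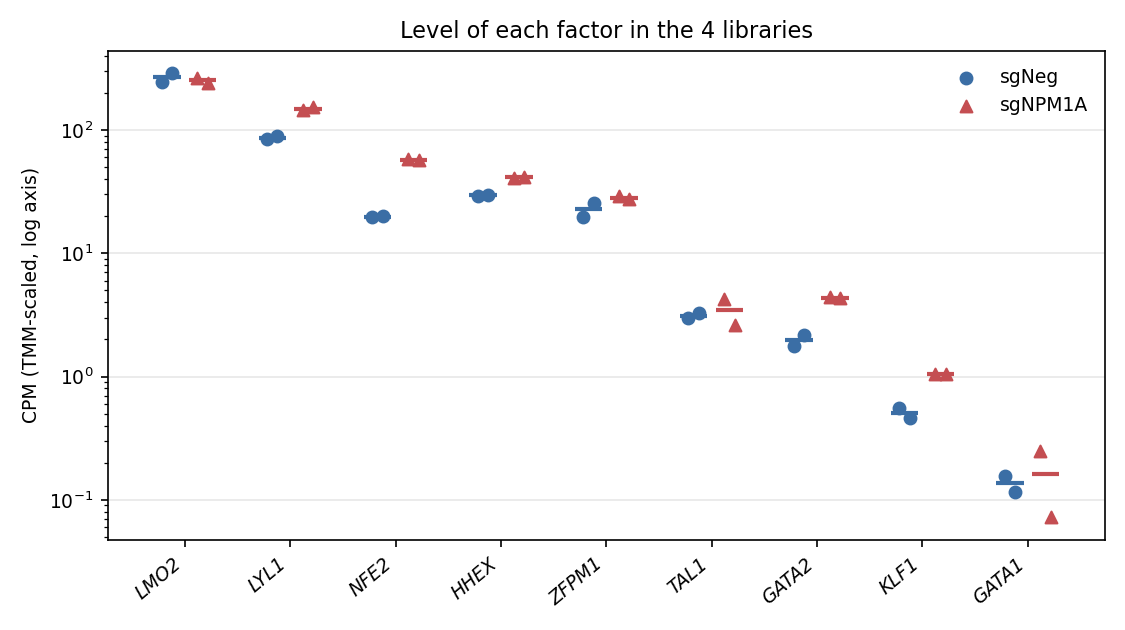
Level of the 9 factors in each library, in CPM scaled by the trimmed mean of M values (TMM), on a log axis. Circles are the 2 sgNeg libraries, triangles the 2 sgNPM1A libraries and short lines the group means. LYL1, NFE2, HHEX, ZFPM1, GATA2 and KLF1 have both sgNPM1A libraries above both sgNeg libraries, and the groups overlap in LMO2, TAL1 and GATA1.

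Of the GATA factors, GATA2 (ENSG00000179348.11, chromosome 3:128479422-128493201, minus strand, GRCh38.p14), which maintains stem and progenitor cells and acts in mast cells, had 45 and 56 counts in the sgNeg libraries and 122 and 121 in the sgNPM1A libraries. Both sgNPM1A libraries were higher, and they differed from each other by less than the sgNeg libraries did. The level rose from 1.97 ± 0.277 to 4.37 ± 0.0135 CPM (mean ± SD, n = 2), a 2.22-fold rise with a log2 fold change of 1.15 (SE 0.19, 95% interval 0.73 to 1.56, edgeR adjusted p = 0.00104). The antisense transcript GATA2-AS1, which overlaps GATA2 over 3999 bases on the opposite strand, had 16 and 20 counts in sgNeg and 41 and 20 in sgNPM1A (log2 fold change 0.64, edgeR adjusted p = 0.256). Its groups overlapped once scaled to library size. Of the 50-base words in GATA2 exons, 0.610% also occur in exons of other genes, and whether reads were counted by strand is not given in the sources used here, so antisense reads within GATA2 cannot be told apart.

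GATA1 (ENSG00000102145.13, chromosome X:48786590-48794311, plus strand), the GATA factor of committed erythroid and megakaryocytic cells, had 4 and 3 counts in the sgNeg libraries and 7 and 2 in the sgNPM1A libraries. The sgNPM1A libraries held both the highest and the lowest value, so the groups overlapped. Group means were 0.137 ± 0.0294 and 0.162 ± 0.127 CPM (SD, n = 2). The summed counts were 7 and 9, and their ratio of 1.19, scaled to library size, has an exact Poisson interval of 0.393 to 3.75 at 95%, which covers counting error only. A change of GATA1 within this interval was therefore not detectable at this depth. ZFPM1 (ENSG00000179588.8, chromosome 16:88451769-88537031, plus strand), the cofactor of GATA1, had 504 and 667 counts in sgNeg and 805 and 765 in sgNPM1A. Both sgNPM1A libraries were above both sgNeg libraries, but the sgNeg libraries were far apart. The level was 22.8 ± 4.19 CPM in sgNeg and 28.2 ± 0.940 CPM in sgNPM1A (SD, n = 2). The log2 fold change of 0.31 (SE 0.12, 95% interval 0.05 to 0.57, edgeR adjusted p = 0.0777) passed neither the limit on adjusted p nor the fold threshold of 0.32. Without sgNeg replicate 2 it was 0.51 (edgeR adjusted p = 0.00750) and passed, and without sgNeg replicate 1 it was 0.13 (edgeR adjusted p = 0.360). ZFPM1-AS1, which overlaps ZFPM1 over 18095 bases on the opposite strand, had 6, 4, 4 and 5 counts in the same order of libraries, and MIR5189 within ZFPM1 had 0 in all 4.

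Of the helix-loop-helix pair, LYL1 (ENSG00000104903.4, chromosome 19:13099033-13102858, minus strand), which overlaps TAL1 in function in adult stem cells, had 2141 and 2296 counts in the sgNeg libraries and 4037 and 4227 in the sgNPM1A libraries. The groups did not overlap, and the gap between them was many times the gap within either. LYL1 rose from 86.4 ± 3.13 to 149 ± 5.23 CPM (SD, n = 2), 1.72-fold, with a log2 fold change of 0.78 (SE 0.07, 95% interval 0.63 to 0.93, edgeR adjusted p = 1.15e-05). TAL1 (ENSG00000162367.11, chromosome 1:47216290-47232335, minus strand), which is needed to form blood stem cells and to mature red cells and platelets, had 76 and 84 counts in sgNeg and 118 and 73 in sgNPM1A. Its sgNPM1A libraries lay on either side of the sgNeg libraries. The means were 3.12 ± 0.179 and 3.43 ± 1.13 CPM (SD, n = 2), and the log2 fold change of 0.14 (SE 0.23, edgeR adjusted p = 0.704) had a 95% interval of -0.37 to 0.64, which leaves room for a change in either direction. It was -0.24 without sgNPM1A replicate 1 and 0.44 without sgNPM1A replicate 2. Of the 50-base words in TAL1 exons, 12.4% also occur in exons of other genes.

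LMO2 (ENSG00000135363.11, chromosome 11:33858576-33892076, minus strand), the LIM-only bridge of the complex, had 6186 and 7494 counts in sgNeg and 7295 and 6719 in sgNPM1A. In CPM the sgNPM1A libraries had 262 and 242 and the sgNeg libraries 243 and 289, so the groups overlapped. Means were 266 ± 32.5 and 252 ± 14 CPM (SD, n = 2), and the log2 fold change was -0.08 (SE 0.09, 95% interval -0.27 to 0.11, edgeR adjusted p = 0.535). Leaving out sgNeg replicate 2 turned it to 0.05, and leaving out sgNeg replicate 1 gave -0.20.

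Of the lineage factors, NFE2 (ENSG00000123405.13, chromosome 12:54292111-54301015, minus strand), the p45 subunit that drives late megakaryocyte genes and is also made in granulocytes, showed the largest rise of the members. It had 495 and 520 counts in the sgNeg libraries and 1609 and 1590 in the sgNPM1A libraries, so all 4 values were close to those of their own group. NFE2 rose from 19.8 ± 0.428 to 57.5 ± 0.326 CPM (SD, n = 2), 2.91-fold, with a log2 fold change of 1.54 (SE 0.08, 95% interval 1.36 to 1.72, edgeR adjusted p = 2.37e-07). HHEX (ENSG00000152804.10, chromosome 10:92689955-92695647, plus strand) had 743 and 768 counts in sgNeg and 1145 and 1142 in sgNPM1A. The groups did not overlap, and the rise from 29.4 ± 0.300 to 41.1 ± 0.0359 CPM (SD, n = 2) was 1.40-fold, with a log2 fold change of 0.48 (SE 0.08, 95% interval 0.31 to 0.66, edgeR adjusted p = 0.00110).

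KLF1 (ENSG00000105610.4, chromosome 19:12884422-12887201, minus strand), the erythroid activator of the adult globin gene, was near the lower limit of what was tested. It had 14 and 12 counts in sgNeg and 29 in each sgNPM1A library. Both sgNPM1A libraries were higher, at 1.04 ± 0.00284 CPM against 0.507 ± 0.0618 CPM (SD, n = 2), a 2.05-fold rise with a log2 fold change of 1.03 (SE 0.33, 95% interval 0.31 to 1.76, edgeR adjusted p = 0.0396). The summed counts of 26 and 58 gave a ratio of 2.06, with an exact Poisson interval of 1.27 to 3.41. The call was lost with DESeq2 (adjusted p = 0.329), and it was lost on leaving out any 1 of the 4 libraries, sgNeg or sgNPM1A, where the log2 fold change was between 0.92 and 1.16 and the edgeR adjusted p between 0.0873 and 0.190. DNASE2, a lysosomal nuclease gene, lies 2972 bases downstream of KLF1 on the same strand. It had 6 counts in each sgNeg library and 45 and 61 in the sgNPM1A libraries. Its log2 fold change was 3.001 (SE 0.37, edgeR adjusted p = 0.000131). DNASE2 passed the filter on low counts only through sgNPM1A, the group where it was high, so its call is given as a description. GCDH, 3927 bases from KLF1 on the opposite strand, had a log2 fold change of 0.17 (edgeR adjusted p = 0.133). No 50-base word of KLF1 exons occurs in exons of another gene, and whether reads from DNASE2 were counted on KLF1 was not tested.

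**Figure D2:**
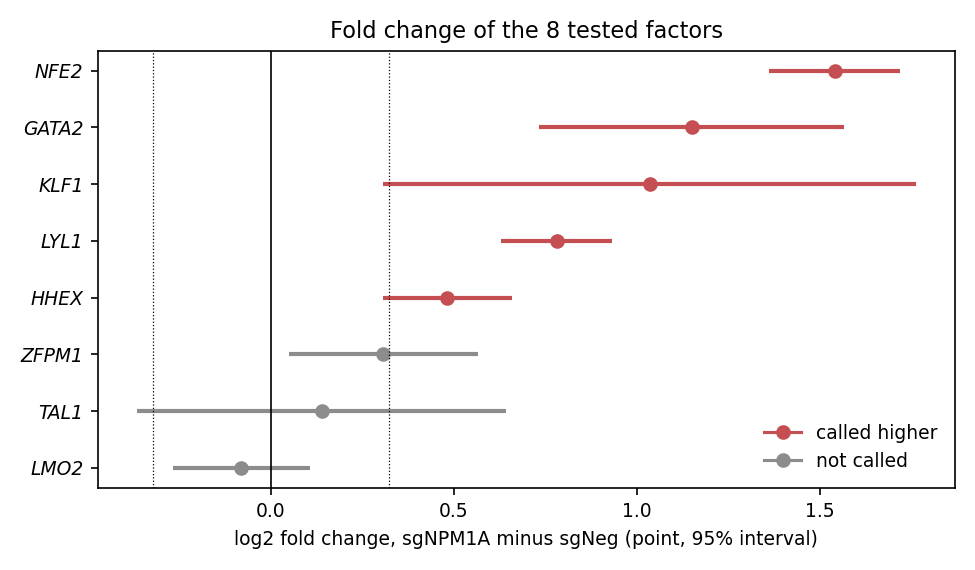
Log2 fold change of the 8 tested factors, sgNPM1A minus sgNeg, with its 95% interval from edgeR. Red points were called higher, grey points were not called, and dotted lines mark the threshold of 0.32 in each direction. NFE2 is farthest to the right at 1.54, and the intervals of TAL1 and LMO2 cross 0.

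The sequence around the start sites is shown for the called members whose window held a GATA word or an E-box, the words bound by the GATA factors and by the helix-loop-helix pairs. RefSeq windows on GRCh38.p14 run from 250 bases before to 50 bases after each start and were given for 7 of the 9 members, with 9 start sites in all. Capitals mark GATA words (GATA with A or T before it and A or G after it, on either strand) and E-boxes (CANNTG). The windows are GATA2 start site 2 (chr3:128488481-128488780), LYL1 (chr19:13102809-13103108) and KLF1 (chr19:12887152-12887451), all on the minus strand and written 5′ to 3′.
GATA2 start site 2: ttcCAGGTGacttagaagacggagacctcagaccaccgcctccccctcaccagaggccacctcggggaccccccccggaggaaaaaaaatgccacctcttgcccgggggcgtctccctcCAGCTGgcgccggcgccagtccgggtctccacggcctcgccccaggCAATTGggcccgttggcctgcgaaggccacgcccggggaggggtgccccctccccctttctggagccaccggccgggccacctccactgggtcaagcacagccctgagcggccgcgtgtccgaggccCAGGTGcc
LYL1: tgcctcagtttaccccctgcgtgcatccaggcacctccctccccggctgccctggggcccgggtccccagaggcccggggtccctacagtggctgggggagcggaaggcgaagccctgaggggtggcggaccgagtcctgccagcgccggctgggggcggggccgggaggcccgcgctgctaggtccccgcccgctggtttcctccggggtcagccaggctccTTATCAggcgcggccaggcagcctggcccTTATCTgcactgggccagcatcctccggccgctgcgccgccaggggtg
KLF1: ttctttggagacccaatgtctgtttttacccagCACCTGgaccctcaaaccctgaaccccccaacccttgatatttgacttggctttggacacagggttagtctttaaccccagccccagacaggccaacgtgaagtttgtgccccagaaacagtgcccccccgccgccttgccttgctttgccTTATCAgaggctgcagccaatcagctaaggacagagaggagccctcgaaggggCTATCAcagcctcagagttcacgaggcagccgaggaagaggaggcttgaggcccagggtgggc

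Counting the start base as 0, LYL1 held TTATCA at -27 and TTATCT at 2, and KLF1 held TTATCA at -66 and CTATCA at -13, each a GATA word read on the other strand. KLF1 also held an E-box, CACCTG, at -217. GATA2 start site 2 held 4 E-boxes, CAGGTG at -247 and at 42, CAGCTG at -131 and CAATTG at -85. Among the other windows TAL1 start site 1 held 1 GATA word and 1 E-box, and GATA1, GATA2 start site 1, TAL1 start site 2, ZFPM1 and HHEX held neither. Over the 9 start sites 3 held a GATA word and 3 an E-box, whereas 24.97% of 35116 RefSeq windows of this length held a GATA word and 68.7% an E-box. CACCC, on either strand, the core of the word that KLF1 binds, was in 7 of the 9 and in 59.9% of all windows. These are matches of letters and not measurements of binding.

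Levels of different genes were compared per length, as CPM per kilobase of exon. In sgNeg, LMO2 was highest at 92.0 CPM per kilobase, followed by LYL1 at 27.7, HHEX at 11.7, NFE2 at 8.37 and ZFPM1 at 3.70 CPM per kilobase. TAL1 at 0.546, GATA2 at 0.400, KLF1 at 0.314 and GATA1 at 0.0880 CPM per kilobase came last. No neighbours in this order overlapped in sgNeg between libraries, which leaves out counting error. At the low end KLF1 rests on 14 and 12 counts and GATA1 on 4 and 3, so their places are uncertain.

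In sgNPM1A the order differed in the middle and at the low end. LMO2 stayed first at 87.0 and LYL1 was next at 47.6 CPM per kilobase, and NFE2 at 24.3 now lay above HHEX at 16.3, with no overlap. GATA2 at 0.889 and KLF1 at 0.646 CPM per kilobase had higher means than TAL1 at 0.601, although TAL1 ranged from 0.461 to 0.742 and so overlapped KLF1. Per kilobase, LMO2 was 3.11 and 3.52 times as high as LYL1 in the sgNeg libraries and 1.95 and 1.71 times as high in the sgNPM1A libraries. LYL1 was from 50 to 106 times as high per kilobase as TAL1 in the 4 libraries, and GATA2 from 3.55 to 19.1 times as high as GATA1, where GATA1 rests on 2 to 7 counts.

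**Figure D3:**
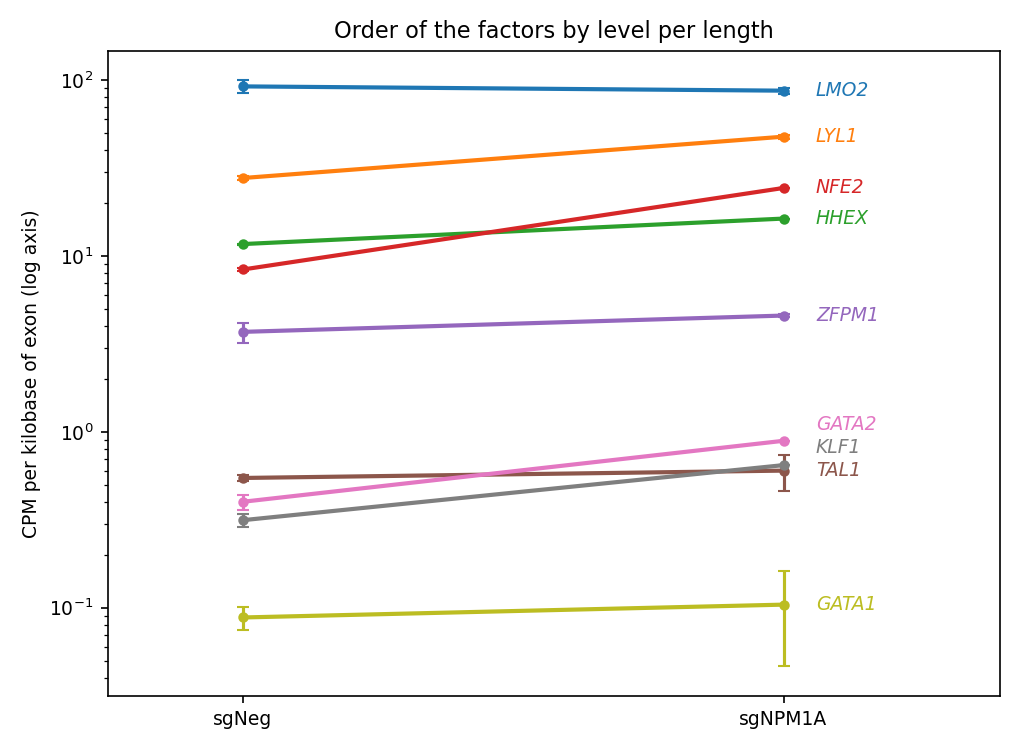
Mean level per length of the 9 factors in sgNeg and sgNPM1A, in CPM per kilobase of exon on a log axis, with bars from the lower to the higher of the 2 libraries. The lines of NFE2 and HHEX cross, with NFE2 going from 8.37 to 24.3 and HHEX from 11.7 to 16.3, and GATA2 and KLF1 end above the mean of TAL1.

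The pattern over the 4 libraries was most like that of NFE2 for SAT1, a polyamine acetyltransferase gene, SNHG19, a small nucleolar RNA host gene, and IRF5, an interferon regulatory factor. Their root mean square distances from NFE2, in log2 CPM centred over the 4 libraries, were 0.0266, 0.0287 and 0.0370. Their log2 fold changes were 1.58, 1.50 and 1.49, against 1.54 for NFE2. With libraries this close within each group, nearness is mostly nearness in fold change, and joint regulation was not tested. No member was called lower, so no such neighbours were sought for a fall.

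Among 14 paralogues of the members, 6 were tested. By edgeR 2 were called higher and 0 lower, against 10.5% and 10.3% of all tested genes. At an unadjusted p under 0.05, 3 were lower, and DESeq2 called 0 lower. The same 2 shares apply to the counts called in each list below. LMO4, a LIM-only relative of LMO2, had 761 and 912 counts in sgNeg and 1561 and 1608 in sgNPM1A and rose by 0.81 on the log2 scale (SE 0.09, edgeR adjusted p = 7.13e-05). LMO3 had 17 and 15 counts in sgNeg and 49 and 26 in sgNPM1A, a log2 fold change of 1.11 (SE 0.37, edgeR adjusted p = 0.0486). The call of LMO3 was lost in 7 of 12 alternatives, with a log2 fold change of 0.59 (edgeR adjusted p = 0.519) without sgNPM1A replicate 1, and in DESeq2 its adjusted p was 0.234. Of the relatives of GATA1 and TAL1, GATA6 had 104 and 155 counts in sgNeg and 99 and 107 in sgNPM1A and was not called (log2 fold change -0.45, SE 0.20, edgeR adjusted p = 0.127), while GATA3 had at most 7 counts per library and TAL2 at most 4. Per kilobase GATA6 was at 1.08 and 1.58 CPM in sgNeg and at 0.935 and 1.01 CPM in sgNPM1A, above GATA2 in each library.

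The calls among partners of the TAL1 and LMO2 complex, a list that includes inhibitors of E proteins, were all lower. Of 17 listed, 14 were tested, and 4 were called lower by edgeR, against 10.3% of all tested genes. By edgeR 0 were called higher, against 10.5% of all tested genes, with 2 higher at an unadjusted p under 0.05 and 0 higher by DESeq2. The median log2 fold change was -0.18. TCF4, an E protein that pairs with TAL1 and LYL1, had 2047 and 2043 counts in sgNeg and 1452 and 1267 in sgNPM1A and fell by 0.71 on the log2 scale (SE 0.08, edgeR adjusted p = 8.59e-05). SSBP3, which stabilizes LDB1, fell by 0.64 (SE 0.08, edgeR adjusted p = 0.000142). ID3 and ID1, inhibitors that sequester E proteins, fell too. ID3 had 285 and 366 counts in sgNeg and 200 and 145 in sgNPM1A (log2 fold change -1.03, SE 0.17, edgeR adjusted p = 0.00103), and ID1 had a log2 fold change of -0.41 (edgeR adjusted p = 0.00330). LDB1, the scaffold, and TCF3, another E protein, had log2 fold changes of -0.28 and -0.17 and were not called. Among SSBP3 exon words of 50 bases, 10.5% also occur in other genes.

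Of 5 listed partners and competitors of NFE2, 4 were tested and 0 were called by edgeR in either direction. At an unadjusted p under 0.05, 1 was higher and 2 were lower, and DESeq2 called 0. MAFG, a small MAF protein that pairs with NFE2, had 5026 and 5766 counts in sgNeg and 7149 and 6689 in sgNPM1A. Its log2 fold change of 0.24 (SE 0.07, edgeR adjusted p = 0.0333) lay under the fold threshold, and without sgNeg replicate 2 it was 0.33 and passed.

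Among 10 other stem cell factors, 5 were tested, and 1 was called higher and 1 lower. BCL11A, a repressor of the fetal globin genes that also acts in lymphoid and stem cells, had 1 and 0 counts in sgNeg and 27 and 22 in sgNPM1A. The summed counts of 1 and 49 gave a ratio of 45.2 with an exact Poisson interval of 7.74 to 1821, and the edgeR adjusted p was 0.000365. BCL11A passed the filter only through sgNPM1A, where it was high, so its call is a description. ERG, an ETS factor of stem cells and megakaryocytes, had 226 and 181 counts in sgNeg and 149 and 155 in sgNPM1A and a log2 fold change of -0.54 (SE 0.15, edgeR adjusted p = 0.0251). The call of ERG was lost with DESeq2 (log2 fold change -0.54, adjusted p = 0.110), without sgNeg replicate 1 (-0.36, edgeR adjusted p = 0.143) and without sgNPM1A replicate 1 (-0.50, edgeR adjusted p = 0.0812). MECOM, HLF, PRDM16 and MYCT1 had 0 counts in every library.

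Globin genes, the targets of KLF1 and GATA1 in red cells, were at or near the floor in both groups apart from HBE1. Of 11 globin genes, including the chaperone gene AHSP, 5 had 0 counts in every library (HBB, HBD, HBG1, HBM and AHSP), and the summed level of the list was between 2.01 and 2.60 CPM. Only HBE1 was tested, with 58 and 46 counts in sgNeg and 57 and 59 in sgNPM1A (log2 fold change 0.04, SE 0.22, edgeR adjusted p = 0.919). Of its 50-base exon words 76.6% also occur in other genes, so its counts are uncertain. For HBA1, HBA2, HBG2 and HBG1 the shared part was 88.1%, 86.7%, 55.0% and 35.2%, so their low counts are uncertain too. SLC4A1, the anion exchanger of red cells, had 1, 0, 0 and 0 counts.

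Of 8 tested heme synthesis genes 1 was called higher and 0 lower by edgeR, with 0 lower at an unadjusted p under 0.05 and 0 lower by DESeq2. It was UROD, the uroporphyrinogen decarboxylase gene, with a log2 fold change of 0.39 (SE 0.07, edgeR adjusted p = 0.00243). ALAS2, the erythroid first enzyme, had 2, 2, 0 and 4 counts. Of 23 erythroid membrane and receptor genes 10 were tested. By edgeR 2 were called higher and 1 lower, against 10.5% and 10.3% of all tested genes. The median log2 fold change was 0.01. GYPC, glycophorin C, which is also made outside the red cell lineage, had 1638 and 1701 counts in sgNeg and 3085 and 3162 in sgNPM1A and rose by 0.79 (SE 0.07, edgeR adjusted p = 1.04e-05). EPOR, the erythropoietin receptor gene, had 579 and 640 counts in sgNeg and 1026 and 940 in sgNPM1A and rose by 0.57 (SE 0.09, edgeR adjusted p = 0.000801). CA2, carbonic anhydrase 2, fell by 0.39 (SE 0.07, edgeR adjusted p = 0.00150), and its edgeR adjusted p was 0.0602 without sgNPM1A replicate 2.

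Of 24 megakaryocyte and platelet genes, among them targets of NFE2, 11 were tested. By edgeR 2 were called higher and 1 lower, against 10.5% and 10.3% of all tested genes. The median log2 fold change was 0.03. TREML1, a platelet granule receptor gene, had 32 and 33 counts in sgNeg and 146 and 145 in sgNPM1A and rose by 2.04 (SE 0.19, edgeR adjusted p = 1.73e-05). PPBP, platelet basic protein, had 2 counts in each sgNeg library and 11 and 16 in sgNPM1A, a ratio of summed counts of 6.23 with an exact Poisson interval of 2.17 to 24.5 (edgeR adjusted p = 0.0108). PPBP, too, passed the filter only through sgNPM1A. Its call was lost without sgNeg replicate 1 (log2 fold change 2.58, edgeR adjusted p = 0.0786) or sgNeg replicate 2 (2.56, edgeR adjusted p = 0.0789), against 2.57 with all libraries, and 32.2% of its exon words occur in other genes. RAB27B, a GTPase of platelet granule release and an NFE2 target in megakaryocytes, had 102 and 98 counts in sgNeg and 13 and 10 in sgNPM1A and fell by 3.22 (SE 0.26, edgeR adjusted p = 5.56e-06). RAB27B passed the filter through sgNeg, with only 1 of the sgNPM1A libraries above its limit. TUBB1, the platelet tubulin, another NFE2 target, had 15 and 9 counts in sgNeg and 23 and 31 in sgNPM1A and was not called (log2 fold change 1.05, edgeR adjusted p = 0.0655). TUBB1 was named after its value was seen. It passed the filter through sgNPM1A, with only 1 of the sgNeg libraries above its limit. TBXAS1 and ITGA2B, better counted genes of this list, were also named after their values were seen, and neither was called. TBXAS1 had 409 and 446 counts in sgNeg and 402 and 470 in sgNPM1A (log2 fold change -0.09, edgeR adjusted p = 0.616). ITGA2B had 53 and 66 counts in sgNeg and 57 and 48 in sgNPM1A (log2 fold change -0.30, edgeR adjusted p = 0.369).

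Mast cell, basophil and eosinophil genes were mostly at or near 0. Of 13 listed, 2 were tested and 1 was called higher, MS4A2, the beta chain of the IgE receptor, with 12 counts in each sgNeg library and 24 and 39 in sgNPM1A (log2 fold change 1.27, SE 0.37, edgeR adjusted p = 0.0277). The call of MS4A2 was lost at a nearly equal log2 fold change with DESeq2 (1.28, adjusted p = 0.201), without sgNeg replicate 1 (1.28, edgeR adjusted p = 0.0984) and without sgNeg replicate 2 (1.255, edgeR adjusted p = 0.105). It was also lost without sgNPM1A replicate 2 (0.88, edgeR adjusted p = 0.339). KIT, the stem cell factor receptor gene that GATA2 regulates, had 0, 1, 0 and 2 counts.

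Of 10 stem and progenitor surface genes, 4 were tested, 2 were called higher and 0 lower by edgeR, with 0 lower at an unadjusted p under 0.05 and 0 lower by DESeq2. FLT3 had 275 and 237 counts in sgNeg and 562 and 580 in sgNPM1A and rose by 1.04 (SE 0.11, edgeR adjusted p = 5.73e-05). CD38, which marks more mature progenitors, had 578 and 524 counts in sgNeg and 942 and 972 in sgNPM1A and rose by 0.68 (SE 0.09, edgeR adjusted p = 0.000270). CD34, the progenitor marker, had 9, 2, 0 and 2 counts.

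Markers of the myeloid lineage, the labelled origin of these cells, moved with the groups beside the rises of NFE2, GATA2, KLF1, LYL1 and HHEX. All 12 listed were tested. By edgeR 9 were called higher and 0 lower, against 10.5% and 10.3% of all tested genes. At an unadjusted p under 0.05, 0 were lower, and DESeq2 called 0 lower. CD33, CEBPA and CD14 were not called (log2 fold changes 0.06, 0.04 and 0.34). The summed level of the list was 3275 and 3354 CPM in the sgNeg libraries and 8312 and 8985 CPM in the sgNPM1A libraries. Much of that rise came from LYZ, with means of 243 CPM in sgNeg and 3005 CPM in sgNPM1A, and PRTN3, with 436 and 2016 CPM. PRTN3, proteinase 3 of granules, had a log2 fold change of 2.21 (edgeR adjusted p = 2.58e-08), LYZ, lysozyme, one of 3.63 (edgeR adjusted p = 3.94e-08) and CSF3R, the granulocyte colony-stimulating factor receptor gene, one of 1.40 (edgeR adjusted p = 1.35e-07). The part of this myeloid difference in the members' rises was not tested.

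Of 9 T cell markers, CD3D, CD3E and CD2 were at 0 in every library, the summed level of 253 to 293 CPM was mostly CD4, which monocytic cells also make, and CD7 was called higher (log2 fold change 1.33, edgeR adjusted p = 0.0274). The CD7 call was lost with DESeq2 and without sgNeg replicate 1, sgNeg replicate 2 or sgNPM1A replicate 2 (log2 fold change between 1.02 and 1.39, adjusted p between 0.0930 and 0.302), and CD7 passed the filter through sgNPM1A, with only 1 of the sgNeg libraries above its limit. Of 7 endothelial markers 6 were in the table and 0 were tested, with a summed level between 0.0772 and 0.180 CPM and CDH5, KDR and TEK at 0, and the most abundant, TIE1, had 2, 0, 4 and 4 counts.

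**Figure D4:**
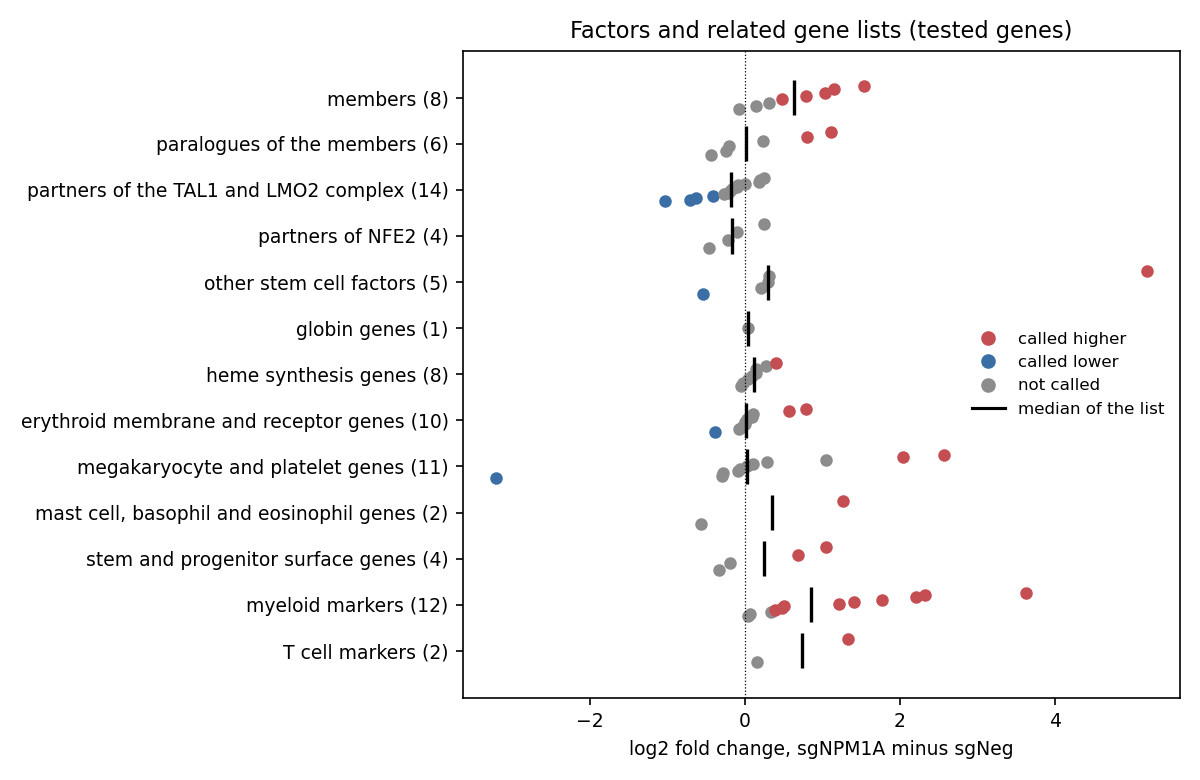
Log2 fold change, sgNPM1A minus sgNeg, of every tested gene of the members and of the lists named on the axis, with the number tested in brackets. Each point is a gene, red if called higher, blue if called lower and grey if not called, and black lines are list medians. The members have a median of 0.63. Partners of the TAL1 and LMO2 complex, a list that includes inhibitors of E proteins, lie mostly to the left of 0 with a median of -0.18. The points farthest out are BCL11A on the right and RAB27B on the left.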

How the data were processed

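RNA-Seq of 4 OCI-AML3 libraries was analysed, 2 sgNeg and 2 sgNPM1A, grouped by their labels. The authors mapped reads to hg38 with STAR and Samtools and deposited raw counts per Ensembl gene, without normalization. The counting program, its strand setting and the annotation release are not given in the sources used here. Libraries held ERCC spike-ins according to the study's methods, 0 rows carry an ERCC name, and scaling by spike-ins was not used here. The medium is RPMI in the study's methods and alpha-MEM in the labels. The study's legend calls the libraries biological replicates, and nothing else in the sources says that they came from separate cultures, so p-values measure the spread between these libraries, which may be technical. Of the 58037 rows, 45 are pseudoautosomal copies on the Y chromosome, and 0 columns of other samples were present.

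Counts were tested with edgeR 4.0.16 in R 4.3.3, after filtering by group at the default minimum of 10 counts, with TMM scaling (factors 0.985 to 1.01) and the robust quasi-likelihood F test, two-sided. P-values were adjusted by Benjamini-Hochberg over 15718 genes. Exon lengths and 50-base words came from GENCODE exons lifted to GRCh37, used for length and sequence sharing alone, and positions and start-site windows from RefSeq on GRCh38.p14. DESeq2 1.42.0, limma 3.58.1 (trend, on quantile-normalized log2 CPM with a prior count of 2), other scalings and filters, a replicate block, other fold thresholds and leaving out each library were alternatives. The fit was tested on simulated data. The members and lists were chosen with earlier results of these data known. Named genes are the members, their annotated neighbours within 5000 bases, the 3 called genes of each list with the smallest adjusted p (where none was called, the 1 with the highest mean CPM), the 3 genes nearest in pattern to the member with the largest rise, and NPM1. ID1, LDB1, TCF3, GATA3, GATA6, TAL2, SLC4A1, ALAS2, KIT, CD34, CD4, TUBB1 and genes listed at 0 were named after their values were seen. So were TBXAS1, ITGA2B, CD33, CEBPA and CD14. B cell markers and 1 erythroid membrane gene are not reported here.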

Additional observations from a re-analysis of the deposited data

How the results depend on the processing

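GATA2, LYL1, NFE2 and HHEX were called higher in all 12 alternative fits at the main fold threshold, with log2 fold changes of 1.01 to 1.30, 0.74 to 0.82, 1.50 to 1.56 and 0.44 to 0.49 and highest adjusted p of 0.00968, 0.000168, 2.60e-05 and 0.00638. KLF1 was not called in 5 of them. The number of members called higher, 5, was 4 with DESeq2 and 3 at a fold of at least 2, and the number of list genes called, 28, was 23 with DESeq2 and 15 at a fold of at least 2. Leaving out each library gave 4 to 5 members and 25 to 28 list genes, with the lone library assumed to vary like the other group. TAL1 then ranged from -0.24 to 0.44 on the log2 scale, LMO2 from -0.20 to 0.050 and HBE1 from -0.13 to 0.23, and HBE1 was -0.000180 when scaled by library size only, which moved the median of all genes to -0.04. The cause was not tested.

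The replicate block, which adds the number in the label to the model, gave 5 members called higher and 30 list genes and changed no call of a member. Nothing in the labels links libraries of the same number, and their deviations from the group means correlated at -0.130 over 15718 tested genes and at -0.523 over the 8856 with a mean above 10 CPM. A replicate block with crossed numbers, chosen after seeing the data, called 3873 genes, 5 members and 32 list genes. Depth limits GATA1 and the genes near 3 counts in both groups, for which only a large change could have been detected.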
